A study of Mus musculus with 30 samples.

Results

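Levels of 9 interferon-induced genes were followed in B16F10 melanoma cells and 6694c2 pancreatic ductal adenocarcinoma (PDAC) cells: Cmpk2, Ifi44, Ifi44l, Nmi, Ifi35, Rtp4, Ifi27, Ifi27l2a and Plscr1. They are small effector genes of mixed function, taken by name from the 49315 genes counted. The data were 24 bulk RNA sequencing libraries, 3 for each of 4 treatments in each of the cell lines. Of 21138 genes with at least 10 reads combined over all libraries, 8 belonged to the list, and Ifi44l did not reach that minimum. The study used these libraries to ask how tumor cells themselves respond to a STING agonist, and the interferon groups show what each line can do when interferon is supplied.

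Both lines came from C57BL/6 mice and were treated in culture, with no host cells present by design. 6694c2 is a single line derived from a female mouse with 1 floxed p53 allele, a floxed YFP reporter and Cre driven by the Pdx promoter. B16F10 is a transplantable melanoma line. The treatments lasted 24 h and were vehicle, a STING agonist (225 µg/mL), IFNβ (1000 U/mL) and IFNγ (100 ng/mL). The sources did not state that the 3 libraries of a group were separate cultures. P-values therefore rest on the spread between these libraries, which may be technical. The fit also borrows the spread of other genes, so p-values do not measure these libraries alone. Their sizes are not to be compared between the lines, which were fitted apart. With 3 libraries in each group, an exact permutation test of a single value could not go below 0.1, and tests were therefore taken from the edgeR fit across all genes. In bulk RNA, fewer cells that transcribe a gene and less RNA per cell cannot be told apart.

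IFNβ, a type I interferon, signals through the IFNAR receptor to transcription factors that bind interferon-stimulated response elements, whereas IFNγ signals through the IFNGR receptor to factors that bind gamma-activated sequences. STING is a sensor of cyclic dinucleotides whose activation can lead a cell to make type I interferon. Beyond the well known antiviral enzymes, the induced genes include many small proteins with unrelated tasks. Among the genes described here, Cmpk2 is a mitochondrial nucleotide kinase, Nmi and Ifi35 are binding partners, Rtp4 is a chaperone of membrane receptors, Ifi27 and Ifi27l2a are small hydrophobic proteins of the ISG12 family, Plscr1 is a phospholipid scramblase, and Ifi44 and Ifi44l are related cytoplasmic proteins.

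Libraries held between 15543131 and 32266795 reads on genes. The line labels were checked against marker genes. The summed level of 7 melanocyte genes was 15978 to 19985 CPM (reads scaled to the total of the library) in B16F10 libraries and 17.4 to 120.4 CPM in 6694c2 libraries, and that of 6 epithelial genes was 11990 to 13976 CPM in 6694c2 libraries and 14.4 to 145.7 CPM in B16F10 libraries. Within 6694c2 cells the melanocyte sum was 79.6 to 81.3 CPM with vehicle, 17.4 to 20.96 CPM with STING agonist, 33.1 to 120.4 CPM with IFNγ and 24.3 to 37.1 CPM with IFNβ, and the part of these differences in the results was not tested. Within B16F10 cells the epithelial sum was 14.4 to 20.7 CPM with vehicle, 110.2 to 145.7 CPM with STING agonist, 15.8 to 39.4 CPM with IFNγ and 18.3 to 57.8 CPM with IFNβ. Sums of 7 blood cell genes stayed between 3.43 and 13.2 CPM, with Cd3e at 0 in every library of 7 of the 8 groups, and sums of 4 fibroblast genes between 0.302 and 3.99 CPM.

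In the gene models used for counting (GRCm38), 3 of the genes lie on chromosome 12. These are Cmpk2 (ENSMUSG00000020638) at chr12:26469204-26479835 on the plus strand, Ifi27 (ENSMUSG00000064215) at chr12:103434211-103440239 on the plus strand and Ifi27l2a (ENSMUSG00000079017) at chr12:103442167-103443680 on the minus strand. Chromosome 3 holds Ifi44 (ENSMUSG00000028037) at chr3:151730922-151749960 on the minus strand and Ifi44l (ENSMUSG00000039146) at chr3:151758737-151762892 on the minus strand. The others are single. Nmi (ENSMUSG00000026946) lies at chr2:51948487-51973494 on the minus strand and Plscr1 (ENSMUSG00000032369) at chr9:92249750-92272278 on the plus strand. Ifi35 (ENSMUSG00000010358) lies at chr11:101448407-101458698 on the plus strand and Rtp4 (ENSMUSG00000033355) at chr16:23520291-23614222 on the plus strand. Gene levels are given as CPM with library sizes scaled by TMM, and as RPKM, the same divided by exon length, where genes are compared with each other.

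Promoter sequences are shown for 4 genes that span the responses described further on: Ifi44 and Cmpk2, with the highest IFNβ responses, Ifi35, which responded to all 3 treatments in B16F10 cells, and Plscr1, which passed no test against vehicle. They run from 250 bases before to 50 bases after the transcript start in RefSeq (GRCm38.p6) and are printed 5′ to 3′ on the strand of the gene. Capitals mark matches to the letters GAAANGAAA or TTCNNNGAA, searched on both strands.
Ifi44, chr3:151749861-151750160, minus strand: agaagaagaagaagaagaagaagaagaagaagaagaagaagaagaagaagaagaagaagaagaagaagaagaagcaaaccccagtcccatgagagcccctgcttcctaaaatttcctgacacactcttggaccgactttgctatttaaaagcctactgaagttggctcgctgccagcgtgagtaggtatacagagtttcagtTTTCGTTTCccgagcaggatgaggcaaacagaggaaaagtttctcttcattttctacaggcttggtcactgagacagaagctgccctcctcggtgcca
Cmpk2, chr12:26468965-26469264, plus strand: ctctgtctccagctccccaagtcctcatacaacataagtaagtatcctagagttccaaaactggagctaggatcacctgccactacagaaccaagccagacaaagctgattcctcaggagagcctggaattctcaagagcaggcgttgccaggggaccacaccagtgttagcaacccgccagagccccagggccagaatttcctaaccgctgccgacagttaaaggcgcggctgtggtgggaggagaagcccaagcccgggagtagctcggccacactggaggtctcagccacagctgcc
Ifi35, chr11:101448162-101448461, plus strand: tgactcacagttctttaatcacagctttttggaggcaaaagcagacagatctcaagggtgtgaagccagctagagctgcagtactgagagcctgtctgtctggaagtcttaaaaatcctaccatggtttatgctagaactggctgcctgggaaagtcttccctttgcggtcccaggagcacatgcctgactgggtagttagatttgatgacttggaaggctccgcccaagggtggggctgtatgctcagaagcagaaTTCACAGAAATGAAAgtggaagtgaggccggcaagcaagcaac
Plscr1, chr9:92249944-92250243, plus strand: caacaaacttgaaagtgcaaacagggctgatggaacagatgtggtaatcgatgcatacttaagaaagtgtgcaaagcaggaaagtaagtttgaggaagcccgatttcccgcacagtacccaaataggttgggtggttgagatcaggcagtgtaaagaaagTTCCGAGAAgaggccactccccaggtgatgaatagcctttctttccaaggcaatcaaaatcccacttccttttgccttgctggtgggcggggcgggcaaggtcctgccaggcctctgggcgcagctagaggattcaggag

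RefSeq promoters were matched for 6 of the 9 genes, the others being Ifi27, Ifi27l2a and Rtp4. The Ifi44 window held TTTCGTTTC, the reverse complement of a GAAANGAAA match, from base -48, counted from 1 at the transcript start. In the Ifi35 window, GAAATGAAA lay from base 14 and TTCACAGAA from base 8, overlapping each other. The Plscr1 window held TTCCGAGAA from base -90. No match to either motif was found in the Cmpk2, Nmi or Ifi44l windows, and the response element core, GAAA repeated after any 2 bases, was found in none of the 6. Of 32851 RefSeq promoters of that length, 3.44% held this core, 3.17% GAAANGAAA and 8.3% TTCNNNGAA. The spacing GAAANGAAA was searched after the sequences had been read. These matches are descriptions of letters and were not tested as binding sites.

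**Figure D1:**
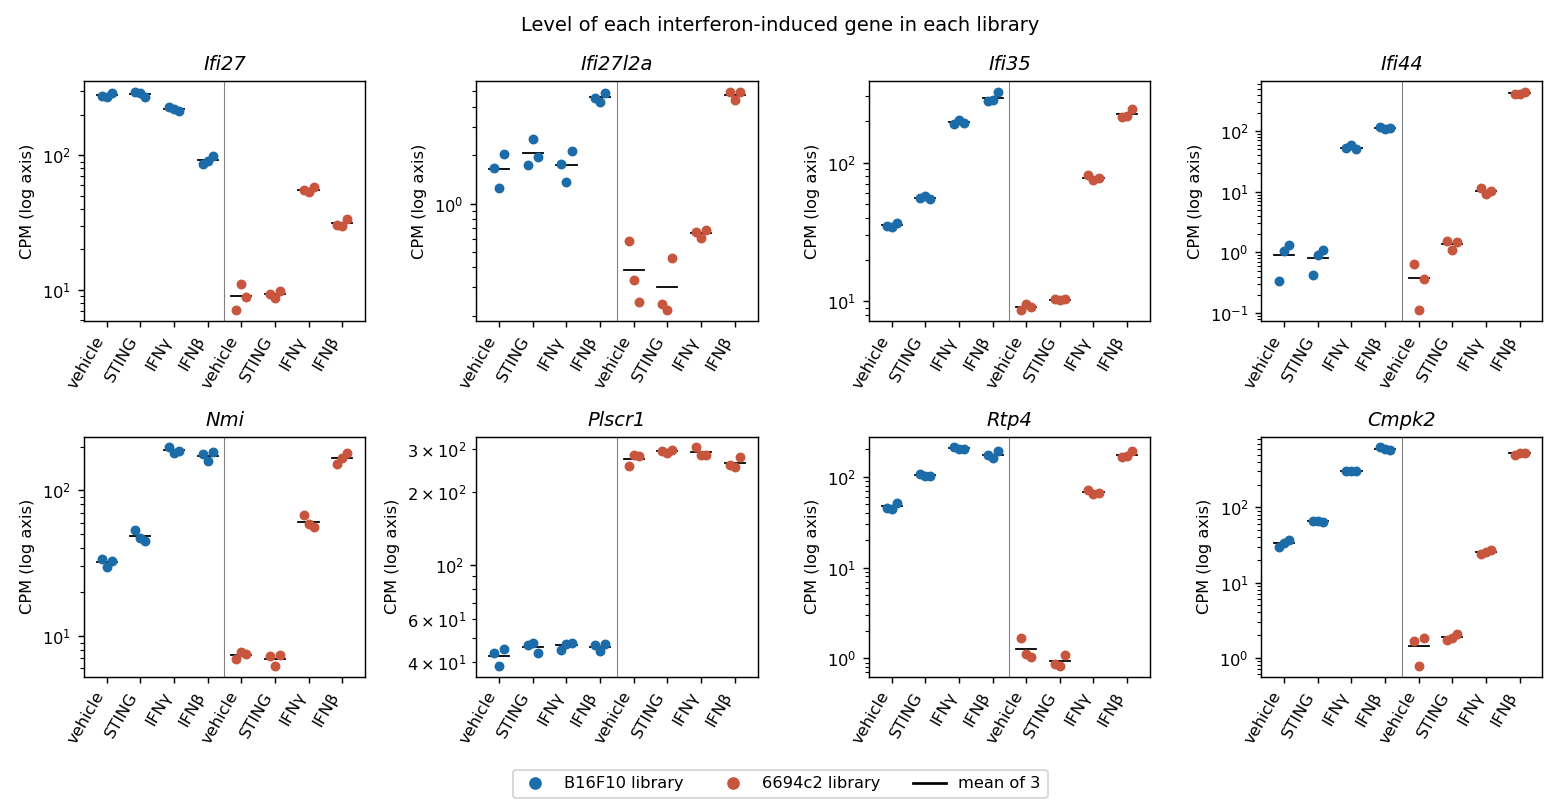
Level of 8 genes in each of the 24 libraries, in CPM on a log axis, with B16F10 libraries in blue and 6694c2 libraries in red, treatments along the horizontal axis and a black line at the mean of 3. Ifi27 fell with IFNβ in B16F10 and rose in 6694c2. Plscr1 differed between the lines and passed no test against vehicle in either. The other 6 genes were raised by IFNβ in each line.

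IFNβ raised most of the genes in both lines. Genes were called at an adjusted p under 0.05 over all genes tested. In B16F10 cells 6 of the 8 tested genes were higher than with vehicle and 1 was lower, against 12.7% and 11.2% of all 21138 genes, and the median log2 fold change of the 8 was 2.17 beside 0.02 over all genes. In 6694c2 cells 7 of 8 were higher, against 10.4% of all genes, and the median was 4.60. With IFNγ, 5 genes were higher and 1 lower in B16F10 cells, against 12% and 10.8% of all genes, with a median of 2.29. In 6694c2 cells with IFNγ, 6 were higher, against 7.89% of all genes, with a median of 3.08. With the STING agonist, 4 of 8 were higher in B16F10 cells, against 1.93%, and 1 of 8 in 6694c2 cells, against 0.203%. The epithelial marker sum was higher in the B16F10 libraries with STING agonist than with vehicle, and its part in these calls was not tested. All 3 treatments of a line were compared with the same 3 vehicle libraries.

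**Figure D2:**
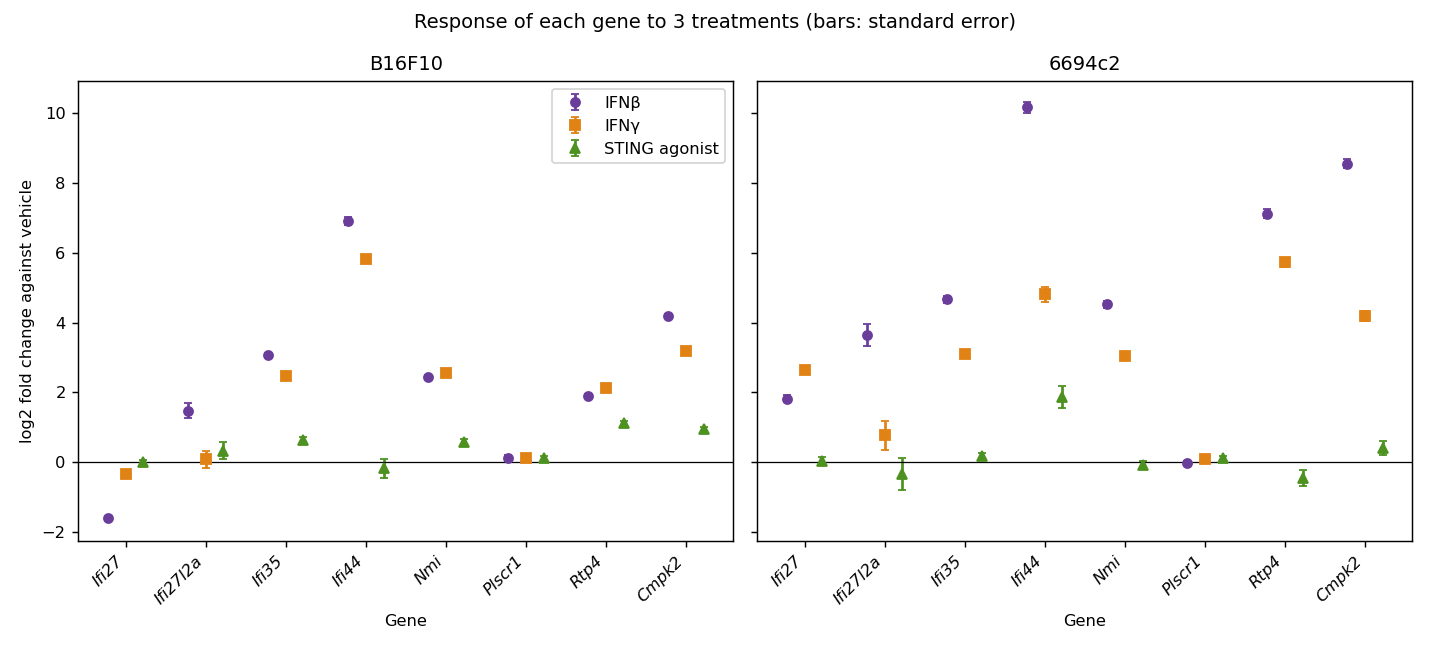
Log2 fold change of each gene against vehicle, with standard error bars, for IFNβ (purple circles), IFNγ (orange squares) and STING agonist (green triangles), in B16F10 on the left and 6694c2 on the right. The highest point is Ifi44 with IFNβ in 6694c2, at 10.17, and the lowest is Ifi27 with IFNβ in B16F10, at -1.59.

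Cmpk2, the mitochondrial UMP/CMP kinase, had the highest mean level of the 8 genes per transcript length under IFNβ in both lines, at 189 ± 6.80 RPKM (SD, n = 3) in B16F10 and 163 ± 5.26 RPKM in 6694c2. Ifi35 came next, at 171 ± 14.5 RPKM, overlapping with Cmpk2, and 131 ± 9.98 RPKM. In B16F10 cells Cmpk2 was measured at 29.4, 33.9 and 36.8 CPM with vehicle and 65.8, 66.8 and 63.2 CPM with STING agonist. It reached 305.5, 302 and 305 CPM with IFNγ and 625, 605 and 582 CPM with IFNβ. The 4 groups did not overlap, and all 3 treatments stood above vehicle. The log2 fold change was 4.18 ± 0.063 (SE) with IFNβ (adjusted p = 2.9e-217), 3.18 ± 0.061 with IFNγ (adjusted p = 7.69e-179) and 0.96 ± 0.062 with STING agonist (adjusted p = 2.44e-39, edgeR, n = 3 in each group).

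In 6694c2 cells Cmpk2 was near the lower end of detection with vehicle, at 1.69, 0.781 and 1.83 CPM, and stayed there with STING agonist, at 1.73, 1.84 and 2.08 CPM. It reached 24.2, 25.6 and 26.9 CPM with IFNγ and 502, 534 and 529 CPM with IFNβ. Vehicle and STING agonist libraries overlapped, while both interferon groups lay apart from them and from each other. Cmpk2 rose by 8.55 ± 0.12 (log2) with IFNβ and 4.18 ± 0.14 with IFNγ (adjusted p = 6.17e-40 and 3.65e-27, edgeR), and the direct comparison of IFNβ with IFNγ gave 4.37 ± 0.086 (adjusted p = 1.25e-34). The same comparison in B16F10 cells gave 1.0 ± 0.054 (adjusted p = 3.42e-54).

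Rsad2, which encodes viperin and makes an antiviral nucleotide from CTP, lies 12751 bases from Cmpk2 on chromosome 12 on the opposite strand. In B16F10 cells the log2 fold change of Rsad2 was 4.16 ± 0.058 with IFNβ, 3.10 ± 0.056 with IFNγ and 1.58 ± 0.053 with STING agonist, beside 4.18, 3.18 and 0.96 for Cmpk2, and these differences between the genes were not tested. In 6694c2 cells Rsad2 rose from 3.97 ± 1.05 CPM (SD, n = 3) with vehicle to 562 ± 16.9 CPM with IFNβ (log2 fold change 7.18 ± 0.15 (SE), adjusted p = 1.76e-34, edgeR). With IFNγ it stood at 5.85 ± 2.29 CPM and did not pass the test (log2 fold change 0.50, 95% interval 0.11 to 0.89, adjusted p = 0.0893), whereas Cmpk2 rose in the same libraries. B16F10 libraries with IFNγ held 930 ± 42.6 CPM of Rsad2, and the part of the melanocyte marker signal of 33.1 to 120.4 CPM in the 6694c2 libraries with IFNγ was not tested. The change of Rsad2 with IFNγ was smaller in 6694c2 than in B16F10 cells by 2.62 on the log2 scale (adjusted p = 3.06e-11), and that of Cmpk2 was larger by 0.98 (adjusted p = 0.000147). Cmpk1, the cytosolic kinase of the same reaction, passed no test against vehicle in B16F10 cells and in 6694c2 cells fell by 0.25 with IFNγ (adjusted p = 0.00416).

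Ifi44, a cytoplasmic protein, had the largest IFNβ fold change of the 8 genes in each line and the lowest level per transcript length with vehicle, 0.147 RPKM in B16F10 and 0.0609 RPKM in 6694c2 cells. In B16F10 cells it was measured at 0.335, 1.04 and 1.33 CPM with vehicle and 0.418, 0.910 and 1.11 CPM with STING agonist, against 51.7, 58.6 and 49.999 CPM with IFNγ and 115.9, 109.4 and 113.4 CPM with IFNβ. The vehicle and STING agonist groups overlapped, and the interferon groups did not overlap with these or with each other. The log2 fold change was 6.91 ± 0.12 with IFNβ, ranked 7 of 21138 genes, and 5.82 ± 0.13 with IFNγ (adjusted p = 4.26e-194 and 7.37e-161, edgeR).

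In 6694c2 cells with vehicle Ifi44 rested on 11, 2 and 6 reads, which gave 0.642, 0.112 and 0.366 CPM. It was measured at 11.5, 9.07 and 10.5 CPM with IFNγ and at 406, 416 and 441 CPM with IFNβ. The 4 groups did not overlap. The log2 fold change with IFNβ was 10.17 ± 0.15, ranked 2 of all genes, and that with IFNγ was 4.81 ± 0.21 (adjusted p = 1.51e-39 and 2.38e-22, edgeR). IFNβ exceeded IFNγ by 5.36 ± 0.098, compared with 1.09 ± 0.071 in B16F10 cells. Because of the small vehicle counts, these fold changes moved with 1 library. Without vehicle replicate 1 the log2 fold change was 10.82 with IFNβ and 5.46 with IFNγ. Leaving out 1 library, the IFNβ value ran from 9.72 to 10.82, beyond its 95% interval of 9.86 to 10.48. The IFNγ value ran from 4.36 to 5.46, beyond its interval of 4.38 to 5.24. The SE and intervals, derived from the test statistic, understate the uncertainty here.

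Ifi44 was also the 1 gene of the list that passed the test with STING agonist in 6694c2 cells. The 3 libraries held 39, 30 and 42 reads, or 1.54, 1.08 and 1.48 CPM, all above the 3 vehicle libraries. The log2 fold change was 1.87 ± 0.31 (adjusted p = 0.000444, edgeR) and ran from 1.43 to 2.52 when 1 library was left out, 2.52 being the value without vehicle replicate 1. The level reached was 0.324% of that with IFNβ. In B16F10 cells the STING agonist gave -0.17 (95% interval -0.72 to 0.37, adjusted p = 0.887).

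Ifi44l, the relative of Ifi44 that lies 8776 bases from it on chromosome 3, was all but absent from these libraries. It had 2 reads among 554605810, 1 in each of 2 B16F10 libraries with IFNγ, and none in the other 22. A count of 0 allows up to 3 reads in a library, or 0.093 to 0.193 CPM across the 24 libraries, and covers counting error only. No response of Ifi44l was detectable at this depth.

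Nmi and Ifi35 bind each other through domains that they share, and both rose with all 3 treatments in B16F10 cells and with both interferons in 6694c2 cells. Nmi in B16F10 cells was measured at 33.7, 30.0 and 32.6 CPM with vehicle, 53.2, 47.0 and 45.2 CPM with STING agonist, 197, 182 and 187 CPM with IFNγ and 177.5, 158 and 182 CPM with IFNβ. The 2 interferon groups overlapped, the log2 difference of IFNβ from IFNγ was -0.12 (95% interval -0.23 to -0.00, adjusted p = 0.195), and both stood above the other groups. Log2 fold changes were 2.44 ± 0.065 with IFNβ, 2.55 ± 0.065 with IFNγ and 0.59 ± 0.068 with STING agonist (adjusted p = 1.05e-132, 5.86e-139 and 2.74e-14, edgeR).

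In 6694c2 cells Nmi was measured at 6.89, 7.76 and 7.50 CPM with vehicle, 7.25, 6.24 and 7.39 CPM with STING agonist, 67.2, 59.2 and 55.7 CPM with IFNγ and 152, 168 and 180.3 CPM with IFNβ. Here the interferon groups did not overlap, and IFNβ exceeded IFNγ by 1.48 ± 0.079 on the log2 scale (adjusted p = 2.25e-19, edgeR). Fold changes against vehicle were 4.53 ± 0.099 with IFNβ and 3.05 ± 0.10 with IFNγ, and that with STING agonist was -0.08 (95% interval -0.32 to 0.15, adjusted p = 0.911).

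Ifi35 in B16F10 cells was measured at 35.1, 34.3 and 36.8 CPM with vehicle, 55.6, 57.2 and 54.6 CPM with STING agonist, 190.6, 202 and 192 CPM with IFNγ and 279, 281 and 323 CPM with IFNβ. All 4 groups lay apart. Unlike Nmi, Ifi35 was higher with IFNβ than with IFNγ in these cells, by 0.61 ± 0.056 on the log2 scale (adjusted p = 2.15e-22, edgeR), and the difference between the genes in this respect was not tested. Against vehicle it rose by 3.06 ± 0.063 with IFNβ, 2.46 ± 0.062 with IFNγ and 0.65 ± 0.065 with STING agonist (adjusted p = 1.93e-169, 1.06e-138 and 6.59e-19).

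In 6694c2 cells Ifi35 was measured at 8.64, 9.54 and 9.14 CPM with vehicle, 82.1, 74.6 and 76.9 CPM with IFNγ and 213, 219 and 245 CPM with IFNβ, with no overlap between them. It rose by 4.66 ± 0.088 with IFNβ and 3.11 ± 0.088 with IFNγ (adjusted p = 3.98e-36 and 1.26e-29, edgeR). With STING agonist it stood at 10.4, 10.2 and 10.4 CPM, above the vehicle libraries but short of the test (log2 fold change 0.18, adjusted p = 0.685). An antisense gene model, Gm11626, shares 290 of the 1727 exon bases of Ifi35 and held 49 reads in all, against 66050 on Ifi35. Whether counting used strand is not given in the sources used here.

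Rtp4 is a Golgi chaperone that helps receptors such as opioid receptors to the cell surface. Of the 8 genes it showed the largest fitted difference between lines with vehicle. In B16F10 cells it was measured at 45.4, 44.6 and 51.2 CPM with vehicle, 107.4, 102.8 and 100.8 CPM with STING agonist, 210.0, 205 and 201 CPM with IFNγ and 173, 161 and 192 CPM with IFNβ. Each group lay apart, with IFNγ on top. Rtp4 had the largest STING agonist response of the 8 genes in B16F10 cells, 1.13 ± 0.062 on the log2 scale (adjusted p = 9.53e-52, edgeR), beside 2.12 ± 0.061 with IFNγ and 1.90 ± 0.061 with IFNβ. The log2 difference of IFNβ from IFNγ was -0.22 ± 0.057 (adjusted p = 0.0019), and without IFNβ replicate 2 it was -0.17 (adjusted p = 0.0545).

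In 6694c2 cells Rtp4 was measured at 1.69, 1.12 and 1.04 CPM with vehicle and 0.867, 0.829 and 1.09 CPM with STING agonist, groups that overlapped. It reached 71.5, 64.9 and 66.1 CPM with IFNγ and 166, 169 and 190.2 CPM with IFNβ. Rtp4 rose by 7.12 ± 0.12 (log2) with IFNβ and 5.73 ± 0.13 with IFNγ (adjusted p = 2.17e-37 and 2.52e-33, edgeR), and IFNβ exceeded IFNγ by 1.40 ± 0.076 (adjusted p = 5.51e-19), the opposite order to B16F10 cells. A gene model on the same strand, Gm45338, shares 296 of the 2131 exon bases of Rtp4 and held 1245 reads, so that reads in this stretch are uncertain. The other members of its family were close to absent, with 0 reads on Rtp1 and Rtp2 and 1 on Rtp3 in all 24 libraries.

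Ifi27, a small hydrophobic protein of intracellular membranes, fell with interferon in B16F10 cells and rose in 6694c2 cells. In B16F10 cells it was the most abundant of the 8 genes per transcript length with vehicle, at 191 RPKM. It was measured at 278, 273 and 290.2 CPM with vehicle, 296.5, 290.2 and 270.5 CPM with STING agonist, 229, 220.1 and 215 CPM with IFNγ and 86.5, 91.3 and 99.3 CPM with IFNβ. The vehicle and STING agonist groups overlapped, and both interferon groups lay below them. The log2 fold change was -1.59 ± 0.056 with IFNβ, 3.02-fold lower, and -0.34 ± 0.054 with IFNγ (adjusted p = 7.92e-96 and 1.05e-08, edgeR).

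In 6694c2 cells Ifi27 was measured at 7.06, 11.1 and 8.90 CPM with vehicle, 9.30, 8.76 and 9.79 CPM with STING agonist, 55.6, 53.2 and 58.5 CPM with IFNγ and 30.3, 29.6 and 33.7 CPM with IFNβ. Both interferon groups lay above the other libraries, with IFNγ the higher. It rose by 2.64 ± 0.11 with IFNγ and 1.82 ± 0.11 with IFNβ (adjusted p = 1.34e-23 and 9.95e-18, edgeR). Ifi27 was the 1 gene of the list called lower with IFNβ than with IFNγ in 6694c2 cells. The log2 difference was -0.82 ± 0.092 there (adjusted p = 2.54e-09, edgeR) and -1.25 ± 0.056 in B16F10 cells (adjusted p = 9.63e-70). The highest 6694c2 group mean was 19.5% of the highest B16F10 group mean.

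Ifi27l2a lies 1927 bases from Ifi27 on chromosome 12 and followed another pattern at low levels. In B16F10 cells it was measured at 1.67, 1.24 and 2.03 CPM with vehicle, 1.76, 1.36 and 2.11 CPM with IFNγ and 4.56, 4.29 and 4.89 CPM with IFNβ. In 6694c2 cells the values were 0.584, 0.335 and 0.244 CPM with vehicle, 0.667, 0.613 and 0.680 CPM with IFNγ and 4.96, 4.39 and 4.94 CPM with IFNβ. The IFNβ libraries lay above all others in each line. Its log2 fold change with IFNβ was 1.48 ± 0.22 in B16F10 cells and 3.63 ± 0.32 in 6694c2 cells (adjusted p = 6.62e-10 and 1.67e-12, edgeR). With IFNγ it was 0.08 in B16F10 cells (95% interval -0.40 to 0.56, adjusted p = 0.908) and 0.77 in 6694c2 cells (95% interval -0.07 to 1.60, adjusted p = 0.275), and with STING agonist it was 0.33 and -0.34 (adjusted p = 0.62 and 0.906).

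The next gene of the family, Ifi27l2b, lies 7217 bases further on. It stood at 0.151 ± 0.051 CPM (SD, n = 3) in B16F10 cells with vehicle and 0.143 ± 0.116 CPM with IFNβ. In 6694c2 cells it rose from 24.1 ± 0.98 CPM with vehicle to 46.8 ± 3.08 CPM with IFNγ and 259 ± 47.1 CPM with IFNβ (log2 fold change 0.98 ± 0.096 and 3.46 ± 0.097 (SE), adjusted p = 6.73e-11 and 6.76e-30, edgeR). Under IFNβ, Ifi27 was the highest of these 3 neighbours per transcript length in B16F10 cells, at 63.0 RPKM, and Ifi27l2b in 6694c2 cells, at 237 RPKM.

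Plscr1, a phospholipid scramblase that also limits viral entry and is induced by interferon in many human cells, passed no test against vehicle in either line. In B16F10 cells vehicle libraries were at 43.7, 38.6 and 45.2 CPM and all 9 treated libraries between 43.4 and 47.9 CPM. In 6694c2 cells vehicle libraries were at 255, 284.5 and 280.5 CPM and treated libraries between 253.7 and 304 CPM. Log2 fold changes with IFNβ were 0.13 (95% interval -0.01 to 0.27, adjusted p = 0.204) and -0.02 (95% interval -0.15 to 0.11, adjusted p = 0.934, edgeR), and those with IFNγ were 0.14 (-0.01 to 0.28) and 0.10 (-0.03 to 0.23). With STING agonist they were 0.11 in both lines, and the 6694c2 libraries lay above their vehicle libraries without passing the test (adjusted p = 0.738). Of 2379 stretches of 100 bases in Plscr1 transcripts, 107 also occur in the gene model Gm5530, so that reads in these are uncertain.

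Its chromosomal neighbour Plscr2, which lies 3323 bases from Plscr1, had another pattern. It rose in B16F10 cells from 3.33 ± 0.39 CPM (SD, n = 3) with vehicle to 10.6 ± 2.52 CPM with IFNγ and 51.2 ± 5.10 CPM with IFNβ (log2 fold change 1.69 ± 0.13 and 3.96 ± 0.11 (SE), adjusted p = 9.21e-31 and 1.23e-120, edgeR). In 6694c2 cells it stood at 0.824 ± 0.27 CPM with vehicle and 1.14 ± 0.40 CPM with IFNβ, which did not pass the test (adjusted p = 0.429). Plscr3 rose by 0.90 with IFNβ and 0.96 with IFNγ in 6694c2 cells and by 0.52 with IFNγ in B16F10 cells. Plscr4 rose by 0.71 with IFNβ and 0.72 with IFNγ in B16F10 cells and fell by 0.43 and 0.72 in 6694c2 cells. The IFNβ changes of Plscr2 and Plscr4 were lower in 6694c2 than in B16F10 cells, with log2 differences of -3.44 and -1.16 (adjusted p = 2.32e-07 and 2.86e-08), and that of Plscr3 was higher by 0.70 (adjusted p = 0.000119).

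**Figure D3:**
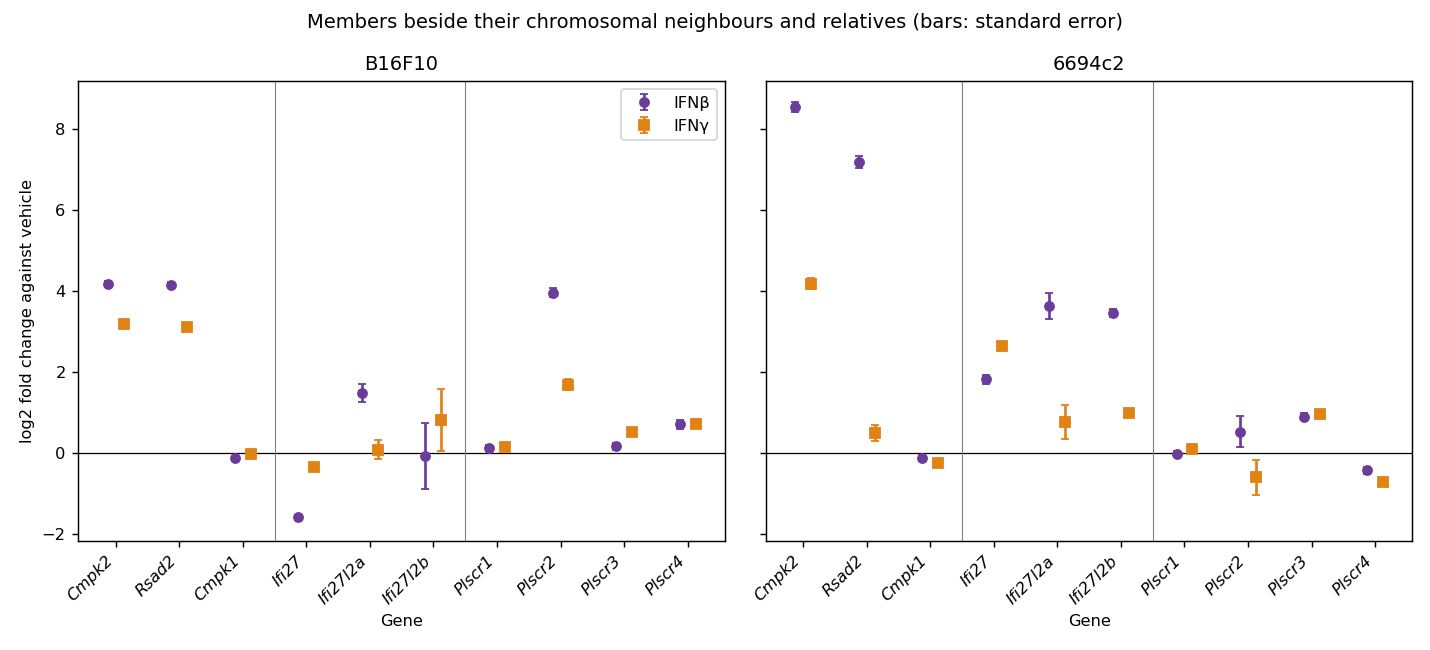
Log2 fold change against vehicle with IFNβ (purple circles) and IFNγ (orange squares), with standard error bars, for Cmpk2, Ifi27, Ifi27l2a and Plscr1 beside their relatives and chromosomal neighbours, separated by grey lines. In 6694c2, on the right, Cmpk2 stands at 4.18 with IFNγ and its neighbour Rsad2 at 0.50, and in B16F10, on the left, Plscr1 stands at 0.13 with IFNβ and its neighbour Plscr2 at 3.96.

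The lines were next compared with each other. With vehicle, 7 of the 8 genes were lower in 6694c2 than in B16F10 cells, against 29.3% of all genes, and Plscr1 was higher, against 28.7%. The log2 differences were -5.19 ± 0.13 for Rtp4, -4.95 ± 0.093 for Ifi27, -4.55 ± 0.13 for Cmpk2, -2.12 ± 0.10 for Nmi, -2.07 ± 0.34 for Ifi27l2a, -1.96 ± 0.085 for Ifi35 and -1.33 ± 0.43 for Ifi44, and 2.68 ± 0.066 for Plscr1 (largest adjusted p = 0.00689, for Ifi44, edgeR). The Ifi44 groups overlapped, and its adjusted p was 0.0781 without B16F10 vehicle replicate 3 and 0.0864 without 6694c2 vehicle replicate 2. Without 6694c2 vehicle replicate 1 the log2 difference was -1.98.

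The log2 fold change with IFNβ was higher in 6694c2 cells for 7 of the 8 genes by an interaction term, against 6.16% of all genes. For Ifi27 this was a change of direction, from -1.59 in B16F10 cells to 1.82 in 6694c2 cells. The difference of log2 fold changes was 5.19 ± 0.15 for Rtp4, 4.34 ± 0.15 for Cmpk2, 3.39 ± 0.12 for Ifi27, 3.23 ± 0.42 for Ifi44, 2.13 ± 0.39 for Ifi27l2a, 2.07 ± 0.13 for Nmi and 1.57 ± 0.11 for Ifi35 (largest adjusted p = 0.000132, for Ifi27l2a, edgeR). The value for Ifi44 was 3.88 without 6694c2 vehicle replicate 1. Plscr1 gave -0.18 (95% interval -0.36 to 0.00, adjusted p = 0.23).

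Levels under IFNβ itself were compared after these values had been seen. For 6 genes the log2 difference between lines was smaller than with vehicle, while that of Ifi44 turned from lower to higher in 6694c2 cells and that of Plscr1 stayed near its vehicle value. Rtp4 was at 175.3 ± 15.8 CPM (SD, n = 3) in B16F10 and 175.1 ± 13.2 CPM in 6694c2 cells, and the 95% interval of the log2 difference ran from -0.14 to 0.14 (adjusted p = 0.992, edgeR). Nmi was at 173 ± 12.7 and 167 ± 14.2 CPM (interval -0.20 to 0.09, adjusted p = 0.564), and Ifi27l2a at 4.58 ± 0.30 and 4.76 ± 0.32 CPM (interval -0.32 to 0.44, adjusted p = 0.811). The groups of these 3 genes overlapped. Cmpk2, Ifi35 and Ifi27 were lower in 6694c2 cells, against 31.5% of all genes, with log2 differences of -0.21 ± 0.067, -0.39 ± 0.061 and -1.56 ± 0.077. Ifi44 and Plscr1 were higher, against 29.9%, by 1.90 ± 0.089 and 2.51 ± 0.065.

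With IFNγ the lines remained apart. The log2 fold change was higher in 6694c2 cells for 5 genes, against 4.52% of all genes. The differences were 3.59 ± 0.16 for Rtp4, 2.97 ± 0.12 for Ifi27, 0.98 ± 0.18 for Cmpk2, 0.63 ± 0.11 for Ifi35 and 0.48 ± 0.13 for Nmi. Ifi27 again changed direction, from -0.34 in B16F10 cells to 2.64 in 6694c2 cells. Ifi44 gave -1.04 ± 0.51 and Ifi27l2a 0.67 ± 0.47 (adjusted p = 0.243 and 0.475, edgeR), and Ifi44 gave -0.38 without 6694c2 vehicle replicate 1. The level under IFNγ, also compared after the values had been seen, was lower in 6694c2 cells for 7 genes, against 31.1% of all genes, and higher for Plscr1, against 28.5%. These log2 differences ran from -3.57 ± 0.079 for Cmpk2 to -1.32 ± 0.064 for Ifi35, with a median over the 8 genes of -1.62.

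**Figure D4:**
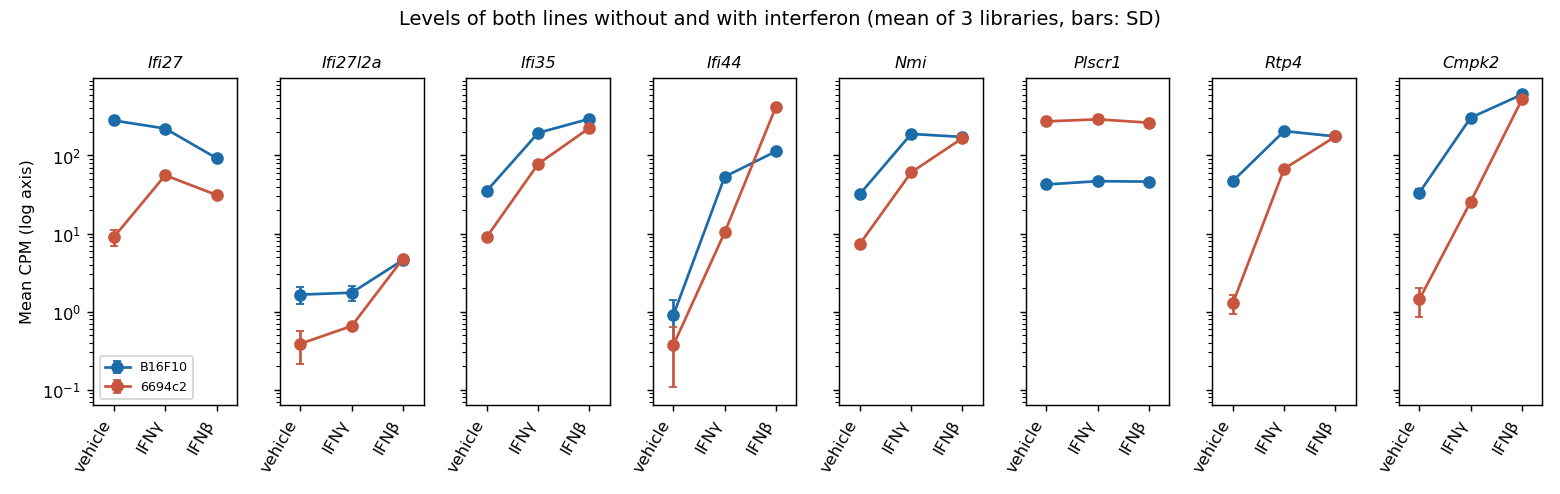
Mean level of 8 genes in CPM on a log axis, with SD bars over 3 libraries, for vehicle, IFNγ and IFNβ in B16F10 (blue) and 6694c2 (red). The lines meet under IFNβ for Rtp4, Nmi and Ifi27l2a, stay apart for Ifi27 and Plscr1, and cross for Ifi44.

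The STING agonist response differed between the lines for 4 genes. Rtp4, Nmi and Ifi35 responded less in 6694c2 cells, against 1.56% of all genes, with differences of -1.60 ± 0.26, -0.68 ± 0.14 and -0.48 ± 0.12 (adjusted p = 7.63e-05, 0.00364 and 0.0145, edgeR). Without 6694c2 vehicle replicate 2, Ifi35 had an adjusted p of 0.0664. Ifi44 responded more in 6694c2 cells, by 2.03 ± 0.52 (adjusted p = 0.0237), against 0.568% of all genes, but this call was lost in a robust fit (adjusted p = 0.0831) and in 7 of the 12 fits that left out 1 library, with adjusted p up to 0.150. Its value was 2.68 without 6694c2 vehicle replicate 1. Cmpk2 gave -0.55 ± 0.22 (adjusted p = 0.256), and -0.86 without 6694c2 vehicle replicate 2 (adjusted p = 0.0219).

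Within each line IFNβ and IFNγ were compared directly. In B16F10 cells 4 genes were higher with IFNβ, against 6.65% of all genes, and 2 were lower, against 7.85%. Ifi27l2a led with 1.40 ± 0.21, followed by Ifi44, Cmpk2 and Ifi35, while Ifi27 and Rtp4 were lower. In 6694c2 cells 6 genes were higher with IFNβ, against 7.30% of all genes, and Ifi27 was lower, against 6.57%. There Ifi44 and Cmpk2 led, followed by Ifi27l2a with 2.87 ± 0.28, Ifi35 with 1.55 ± 0.071, Nmi and Rtp4. Plscr1 gave -0.01 and -0.12 (adjusted p = 1 and 0.256, edgeR).

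The other genes of the pathway, 15 receptor, kinase, transcription factor and feedback genes, were counted in the same fits. With IFNβ, 11 were higher and 1 lower in B16F10 cells, against 12.7% and 11.2% of all genes, and 11 were higher in 6694c2 cells, against 10.4%. The largest change was that of Stat2 in B16F10 cells, 4.16, and that of Irf7, a transcription factor that amplifies type I interferon, in 6694c2 cells, 10.01. With IFNγ, 11 were higher and 1 lower in B16F10 cells, against 12% and 10.8%, with Irf1 at 5.69. In 6694c2 cells 10 were higher, against 7.89%, and 1 lower, against 5.66%, with Irf7 at 6.34. Ifngr2, a chain of the IFNγ receptor, had the lowest log2 fold change of the list in each of these 4 comparisons, from -0.47 to -0.10. With STING agonist 5 were higher in B16F10 cells, against 1.93%, led by Usp18, a negative regulator of IFNAR signaling, at 1.15, and 1 in 6694c2 cells, against 0.203%, Irf7 at 1.62, beside which Ifi44 was the 1 gene of the effector list to pass.

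For each gene the nearest patterns were sought among 11128 genes at 5 CPM or more in at least 1 group, by the root mean square difference over the 6 log2 fold changes against vehicle. Those nearest were Mov10 to Nmi (0.29), Ccl2 to Ifi27 (0.32), Rnf213 to Ifi35 (0.33), Pcdh17 to Ifi27l2a (0.43), Oas2 to Cmpk2 (0.48), Xaf1 to Rtp4 (0.54) and Slfn8 to Ifi44 (0.80). The second nearest were Tlr3 to both Nmi (0.38) and Ifi35 (0.34), Hoxa11 to Ifi27 (0.35), Tcirg1 to Ifi27l2a (0.54), Usp18 to Cmpk2 (0.53), Bst2 to Rtp4 (0.73) and Ifi207 to Ifi44 (0.999). Patterns within a distance of 1 numbered 2 for Ifi44, 6 for Rtp4, 16 for Cmpk2, 36 for Ifi27, 47 for Ifi35, 50 for Nmi and 55 for Ifi27l2a. For Plscr1, whose changes were all small, they numbered 10393, with Fbxo44 and Xkr8 the nearest (both 0.03). A distance of 1 also takes in genes that changed more than Plscr1 did.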

How the data were processed

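Poly(A) RNA of cultured cells was sequenced as paired ends. Per the sources, the authors checked reads with fastqc, trimmed them with cutadapt, aligned them with STAR to mm10 and counted them with Rsubread. The deposited counts are whole reads per gene and library, not normalized. The gene models in the files carry GRCm38 coordinates, which are those printed. The annotation release, strand setting and treatment of multi-mapping reads, which can move reads between overlapping models, are not given in the sources used here. The 6 single-cell samples of the series are not analysed here, and some details of the genotype and pathway are not reported here. Libraries were grouped by their titles into 8 groups of 3, and no library was dropped.

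Genes with at least 10 reads combined over 24 libraries were kept. Counts were fitted with edgeR 4.0.16 (R 4.3.3) by quasi-likelihood with TMM factors and group means, each line in its own fit of 12 libraries. Comparisons between lines and interaction terms used 1 fit of all 24. P-values were two-sided and adjusted by Benjamini-Hochberg over all 21138 genes, with 0.05 as the threshold. The size of the smallest ones depended on the model. For Cmpk2 with IFNβ in B16F10 cells the adjusted p was 2.9e-217 in the main edgeR fit. It rose to as much as 2.45e-26 among the edgeR and DESeq2 alternatives. The SE of a log2 fold change was derived from the test, as its size divided by the square root of the F statistic. Intervals are 95% intervals of the fitted log2 fold change, built from this SE. Both can be too narrow for large changes from few reads. CPM used TMM factors over 24 libraries, and RPKM divided these by exon length. Marker sums and the Ifi44l limits used plain CPM of total reads. Depth was 15543131 to 32266795 reads, so that 3 reads corresponded to 0.093 to 0.193 CPM. Libraries of a group correlated at 0.989 to 0.993 (log CPM) and differed by more than counting noise, with a chi-square per degree of freedom of at least 2.99. The fit was tested on simulated data.

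The 9 genes, the 10 relatives and partners, the 15 pathway genes, the marker lists and the comparisons were chosen with earlier results of these data known. The text names every listed gene of the first 2 lists and, of the pathway list, the genes with the highest or lowest change. Ifi27l1, among the 10, has no row of its own name in the files. The comparisons of levels under IFNβ and under IFNγ between lines were added after values had been seen. Alternatives were RLE factors, DESeq2 1.42.0, a robust fit, other filters, only the compared groups, a replicate block and leaving out each library.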

Additional observations from a re-analysis of the deposited data

Results flagged for a closer look

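The effects below differed between 6694c2 and B16F10 cells by an interaction term in edgeR (adjusted p under the threshold). Each is the log2 fold change against vehicle in 6694c2 cells minus that in B16F10 cells. For IFNβ it was 3.39 for Ifi27, 2.13 for Ifi27l2a, 1.57 for Ifi35, 3.23 for Ifi44, 2.07 for Nmi, 5.19 for Rtp4 and 4.34 for Cmpk2. Ifi27 was the 1 gene among these whose libraries moved in opposite directions in the lines. For IFNγ it was 2.97 for Ifi27, 0.63 for Ifi35, 0.48 for Nmi, 3.59 for Rtp4 and 0.98 for Cmpk2. For STING agonist it was -0.48 for Ifi35, 2.03 for Ifi44, -0.68 for Nmi and -1.60 for Rtp4. The differences for Ifi44 and Ifi35 with STING agonist depended on single libraries.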

How the results depend on the processing

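Each of 112 values was recomputed under the alternatives, 1600 in all. Direction and side of the threshold were kept in 1550, the call was lost in 12 and gained in 2, and the sign turned in 36, none of them a called value. The number of genes called changed in 3 comparisons, to 5 to 7 for IFNβ against IFNγ in B16F10 cells, 3 to 4 for the STING agonist difference between lines and 7 to 8 for vehicle between lines. The replicate numbers did not pair the libraries (correlations of same-numbered deviations from -0.248 to 0.207, and 6 of 24 libraries nearest their own number), and the replicate block left every count of called genes as it was, such as 7 for IFNβ in each line. The sign turned for Ifi27 in the STING agonist difference with DESeq2 (-0.0021) and RLE factors (-0.0019), for Plscr1 in the IFNγ difference with only the compared groups (0.015), and for Rtp4 between lines under IFNβ with the filterByExpr minimum (0.010), only the compared groups (0.0016) and the replicate block (0.0091). Leaving out 1 library, values that changed sign ran as follows. For Ifi27 with STING agonist they ran from -0.11 to 0.23 in 6694c2 cells, -0.011 to 0.058 in B16F10 cells and -0.14 to 0.19 in their difference. For Ifi27l2a they ran from -0.76 to 0.074 with STING agonist in 6694c2 cells and -0.093 to 0.27 with IFNγ in B16F10 cells. For Ifi44 with STING agonist in B16F10 cells they ran from -0.52 to 0.21. Between lines under IFNβ they ran from -0.11 to 0.012 for Nmi and -0.066 to 0.066 for Rtp4. For Plscr1 they ran from -0.068 to 0.011 with IFNβ in 6694c2 cells, -0.044 to 0.013 for IFNβ against IFNγ in B16F10 cells, -0.10 to 0.058 in the IFNγ difference and -0.058 to 0.061 in the STING agonist difference. Nmi passed the test between IFNβ and IFNγ in B16F10 cells without IFNβ replicate 3 (-0.16, adjusted p = 0.0432). The Ifi44 difference between lines with STING agonist lost its call without B16F10 STING agonist replicate 1, B16F10 vehicle replicates 2 and 3, 6694c2 STING agonist replicates 1 and 3 and 6694c2 vehicle replicates 2 and 3. The causes were not tested. The median over all genes stayed within 0.054 of 0 under TMM, RLE and DESeq2 scaling. Small vehicle counts limit the fold changes of Ifi44 and Ifi27l2a in 6694c2 cells. With DESeq2 fold changes, Slco3a1 and Eda2r took the place of the second nearest patterns of Ifi27 and Ifi27l2a.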
